A study of Mus musculus with 7 samples.

Results

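The control arrays of the series, titled reconRAG1KO, are described here on their own, as a baseline transcriptome of mature medullary thymic epithelial cells. They were chosen by title and are 4 of the 7 samples in all; the other group was not compared with them. Each sample came from NOD mice carrying a null Rag1 gene, which make no mature T or B cells of their own. Bone marrow was injected into the peritoneum of pups aged 2 to 4 days, 6 h after irradiation with 200 rad, and the reconstituted thymi were analysed 6 to 8 weeks after the transfer. Thymi were digested with collagenase and dispase, the MHC class II-high medullary epithelial cells went by flow sorting into Trizol, and 6 µg of total RNA per sample was made into biotinylated cRNA for Affymetrix arrays. The samples are called biological replicates; how many thymi each one held, and the strain of the marrow donor, are not given in the sources used here.

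Medullary thymic epithelial cells present self antigens to developing T cells. The mature cells, which carry high MHC class II and CD80, express the autoimmune regulator Aire, which switches on at low frequency many genes otherwise restricted to one peripheral tissue, and they hand part of these antigens to thymic dendritic cells. Signals through RANK, CD40 and the lymphotoxin beta receptor drive their maturation, whereas cortical epithelial cells are marked by products such as thymus-specific serine protease (Prss16) and the chemokine Ccl25.

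The promoters of 3 genes introduce the kinds of gene met here: the regulator Aire, Rplp0 for the ribosomal proteins that hold much of the top of the array, and Sprr1a for the tissue antigens. Each sequence spans 250 bases before to 50 after the annotated start, 5′ to 3′ on the gene's strand, from RefSeq on GRCm38.p6, whose reference strain is not NOD; capitals mark CpG dinucleotides and any TATAAA.
Aire, chr10:78043561-78043860, minus strand: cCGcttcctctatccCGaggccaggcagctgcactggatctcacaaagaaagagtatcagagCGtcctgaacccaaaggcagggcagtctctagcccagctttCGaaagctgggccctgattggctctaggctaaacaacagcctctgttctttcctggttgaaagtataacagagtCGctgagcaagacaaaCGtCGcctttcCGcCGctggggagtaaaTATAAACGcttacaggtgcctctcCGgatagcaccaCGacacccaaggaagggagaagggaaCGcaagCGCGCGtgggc
Rplp0, chr5:115559217-115559516, plus strand: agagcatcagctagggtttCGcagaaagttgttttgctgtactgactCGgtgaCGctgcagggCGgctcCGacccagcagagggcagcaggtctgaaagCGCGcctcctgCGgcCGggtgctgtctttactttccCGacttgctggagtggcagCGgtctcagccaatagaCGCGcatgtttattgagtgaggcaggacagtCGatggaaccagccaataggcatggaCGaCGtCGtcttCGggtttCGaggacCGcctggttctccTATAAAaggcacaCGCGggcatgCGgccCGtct
Sprr1a, chr3:92485832-92486131, minus strand: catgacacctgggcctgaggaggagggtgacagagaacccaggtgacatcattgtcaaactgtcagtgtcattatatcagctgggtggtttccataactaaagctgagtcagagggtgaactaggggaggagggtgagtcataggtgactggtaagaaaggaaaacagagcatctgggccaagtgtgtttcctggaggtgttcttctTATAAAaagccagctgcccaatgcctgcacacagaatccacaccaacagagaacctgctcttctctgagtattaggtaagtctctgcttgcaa
The Aire promoter held 16 CpG dinucleotides, and its TATAAA began 29 bases before the start. Rplp0 held 24 CpG, with its match 17 bases after the annotated start. Sprr1a held 0 CpG, with its match 43 bases before the start. These matches describe letters and are not shown to be sites.

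The deposited table gave 1 intensity per probe set. Of 34760 probe sets, 21640 carried 1 gene symbol in the platform annotation and stood for 19937 genes, each read from its probe set with the highest mean. Mean log2 intensities ran from 2.60 to 14.09, with a median of 6.86. A gene's percentile is the share of these genes with a lower signal on the same array. It orders signals and not transcript numbers, because probe sets hybridise differently. As a reference for genes that an epithelial cell should rarely use, 1212 olfactory, vomeronasal and taste receptor genes were taken. The 95th percentile of their means, 5.98, is called the reference level, and 13921 genes (69.8%) lay above it.

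Replicate 4 stood apart from the other arrays. Over genes, replicates 1 to 3 correlated with each other at 0.995 to 0.996 (Pearson), and replicate 4 correlated with them at 0.951 to 0.956; genes are not independent replicates. The median SD of a gene over all 4 arrays was 0.16 on the log2 scale, and 0.07 over replicates 1 to 3. An SD above 0.5 was reached by 1246 genes over 4 arrays and by 52 without replicate 4. Identical deposited values on at least 2 of the 4 arrays occurred in 7436 genes (37.3%), which can make a spread look smaller than it was. The number of arrays limits the precision of every spread. Replicate 4 exceeded the mean of the others by more than 1 (log2) in 189 genes (0.948%) and lay below it by more than 1 in 949 (4.76%). For the other arrays, each set against the remaining 3, the same limit was passed upward in 0.331%, 0.271% and 0.14% of genes for replicates 1, 2 and 3. Downward it was passed in 0.1%, 0.0351% and 0.0251%. On replicate 4 the number passing downward varied with signal level. It was 408 of 1994 genes in the highest 10% by mean signal and 202 of 1994 in the next 10%. In the lowest 10% it was 0 of 1993. Shares of all genes given below are not matched for level. Over all genes, replicate 4 was above every other array in 51.7% and below every other array in 28.2%. The median log2 intensity of all probe sets was 6.59 on replicate 4 and 6.47 on each other array. The split of 189 higher to 949 lower genes became 340 to 803 after quantile normalization and 121 to 1183 after centring the array medians. With these scalings replicate 4 was above every other array in 49.4% and 39.6% of genes, and below every other in 35.4% and 44.8%. Labels name no batch. Values and directions below are for the deposited scale unless another is named.

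Rag1, the gene null in these mice and the recombinase that assembles antigen receptor genes, gave log2 intensities of 8.82, 9.0006, 7.83 and 7.22 in replicates 1 to 4. The first and second arrays were higher than the others and all lay above the reference level. Lymphocyte precursors that grew from the donor marrow also transcribe it, so Rag1 does not check the recipients' genotype. NOD mice are known to carry a defective H2-Ea gene, which encodes the MHC class II E alpha chain. A low signal would not identify the strain by itself, and the strain of the marrow donor is not given. H2-Ea gave 5.93, 5.73, 5.83 and 5.83, below the reference level. Its partner chain H2-Eb1 gave 12.97, 12.93, 12.92 and 12.54, among the highest signals of every array.

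The 6 markers of the sorted cells all ranked high. The median percentile of the 6 was 98.7 ± 0.8 (SD, n = 4 arrays), and 98.4 over replicates 1 to 3. Cd74, the invariant chain that escorts MHC class II, gave 13.37, 13.39, 13.39 and 13.39 and was level across the arrays. Aire gave 10.90, 10.89, 11.09 and 11.93, a mean percentile of 98.9; replicates 1 to 3 lay close together and replicate 4 was higher by 0.97 than their mean. Krt8, a keratin of simple epithelia, gave 11.02, 11.06, 11.43 and 11.95.
Krt5, a keratin of basal and medullary epithelium, gave 10.09, 10.68, 10.97 and 11.85, and Epcam, the epithelial adhesion molecule, gave 9.31, 9.51, 9.71 and 10.16. In each of Aire, Krt8, Krt5 and Epcam replicate 4 was the highest array. Cd80, the CD28 ligand that marks mature medullary cells, went the other way, with 10.32, 10.31, 10.18 and 9.08; replicate 4 was the lowest and the others were close to each other. All 6 markers of the labelled cells were thus present, beside the leucocyte genes described further on.

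**Figure D1:**
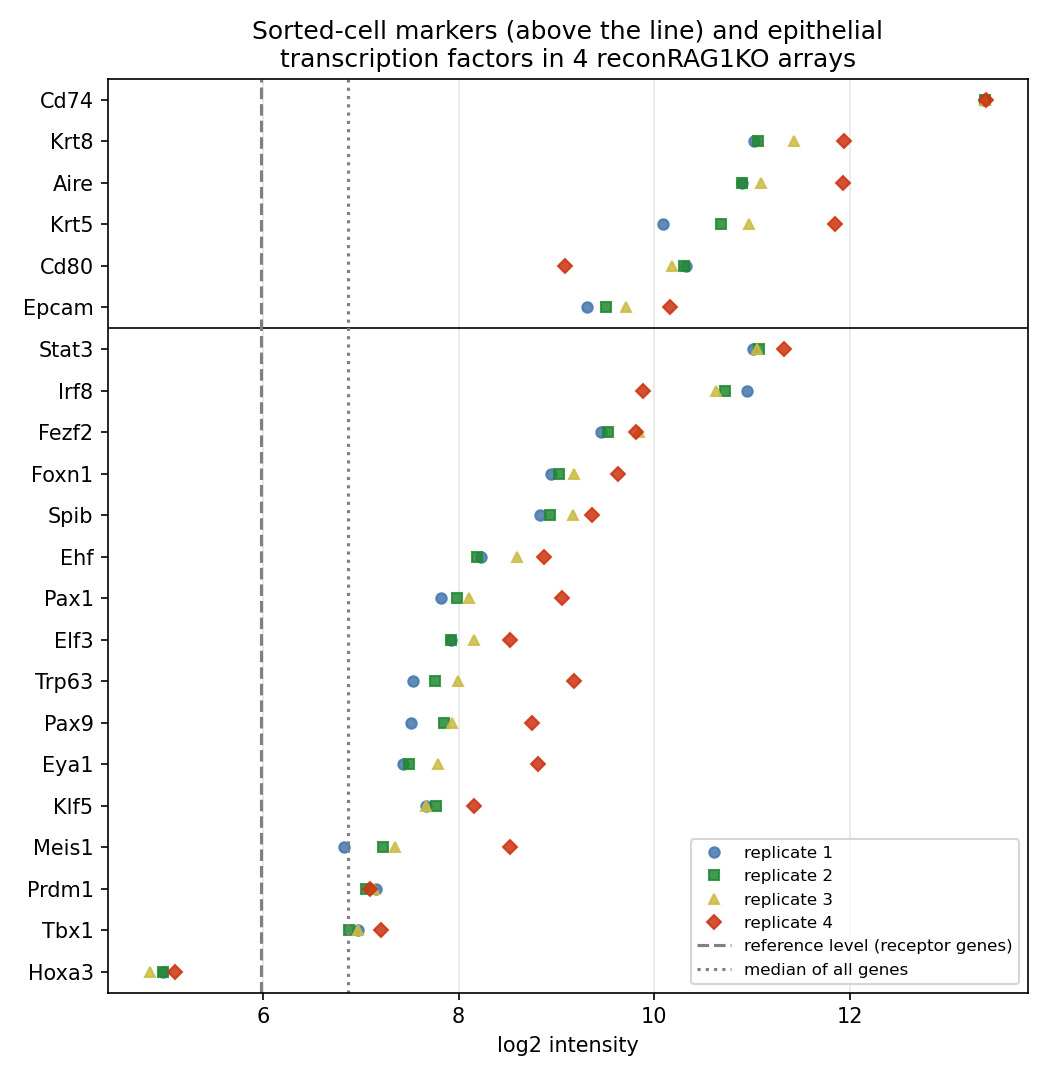
Log2 intensity (x axis) of the 6 sorted-cell markers and of the measured epithelial transcription factors that are not among them (y axis) in each reconRAG1KO array; the dashed line is the reference level of 5.98 and the dotted line the median of all genes, 6.86. All markers lie to the right of both lines, and in most genes replicate 4 is the rightmost point, whereas Cd80 and Irf8 are lowest there.

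The genes with the highest mean signals were the small nuclear RNA Rn7sk at 14.09, beta actin (Actb) at 14.04 and the elongation factor Eef1a1 at 13.89. Among the 30 highest, the antigen presentation genes were Cd74, B2m, H2-Ab1, H2-Eb1 and H2-Aa. B2m, the light chain of MHC class I, gave 13.37, 13.36, 13.36 and 13.07. The MHC class II chain H2-Ab1 gave 12.87, 12.89, 12.86 and 12.76, and its partner H2-Aa gave 12.89, 12.78, 12.84 and 12.28. These chains varied little among replicates 1 to 3, and on the deposited scale replicate 4 was lowest for each. After quantile normalization it was highest for H2-Ab1 and H2-Eb1 and within the range of the others for H2-Aa.
Also among the 30 were Cst3, Fscn1 and Vim. Cst3 (cystatin C, abundant in dendritic cells) gave 13.61, 13.43, 13.43 and 10.95. Fscn1 (fascin, an actin bundler of mature dendritic cells) gave 13.05, 12.88, 12.77 and 11.82. Vim (vimentin, an intermediate filament of mesenchymal and blood cells) gave 13.08, 12.91, 12.95 and 11.68. Replicate 4 was the lowest array in all of them, with a difference of -2.53 for Cst3. Ribosomal protein genes made up 30 of the 100 highest genes, and 6 of the 100 were translation factors, 5 belonged to the MHC class II list, 4 to the heat shock chaperones and 3 to MHC class I processing.

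Gene lists took clearly different places within the array. Of 144 genes listed for thymic epithelial function, 138 (95.8%) lay above the reference level and 79 (54.9%) in the top 10% of genes. Of 259 tissue antigen genes, 155 (59.8%) lay above the reference level and 6 (2.32%) in the top 10%. Of 136 genes of other cell types, 113 (83.1%) lay above and 24 (17.6%) were in the top 10%. Over all genes 69.8% lay above that level. The median percentile was 91.6 for the epithelial function genes, 36.6 for the tissue antigens and 53.6 for the other cell types. The first set also holds antigen presentation, costimulatory, receptor pathway, chemokine and chromatin factor genes, which are not confined to epithelium. Its lists of epithelial identity had lower medians. These were 89.3 for general epithelial genes, 77.6 for transcription factors, 66.6 for cortical genes and 60.9 for basal and medullary keratins. Fewer cells with a transcript and less transcript per cell cannot be told apart in RNA pooled from many cells.

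**Figure D2:**
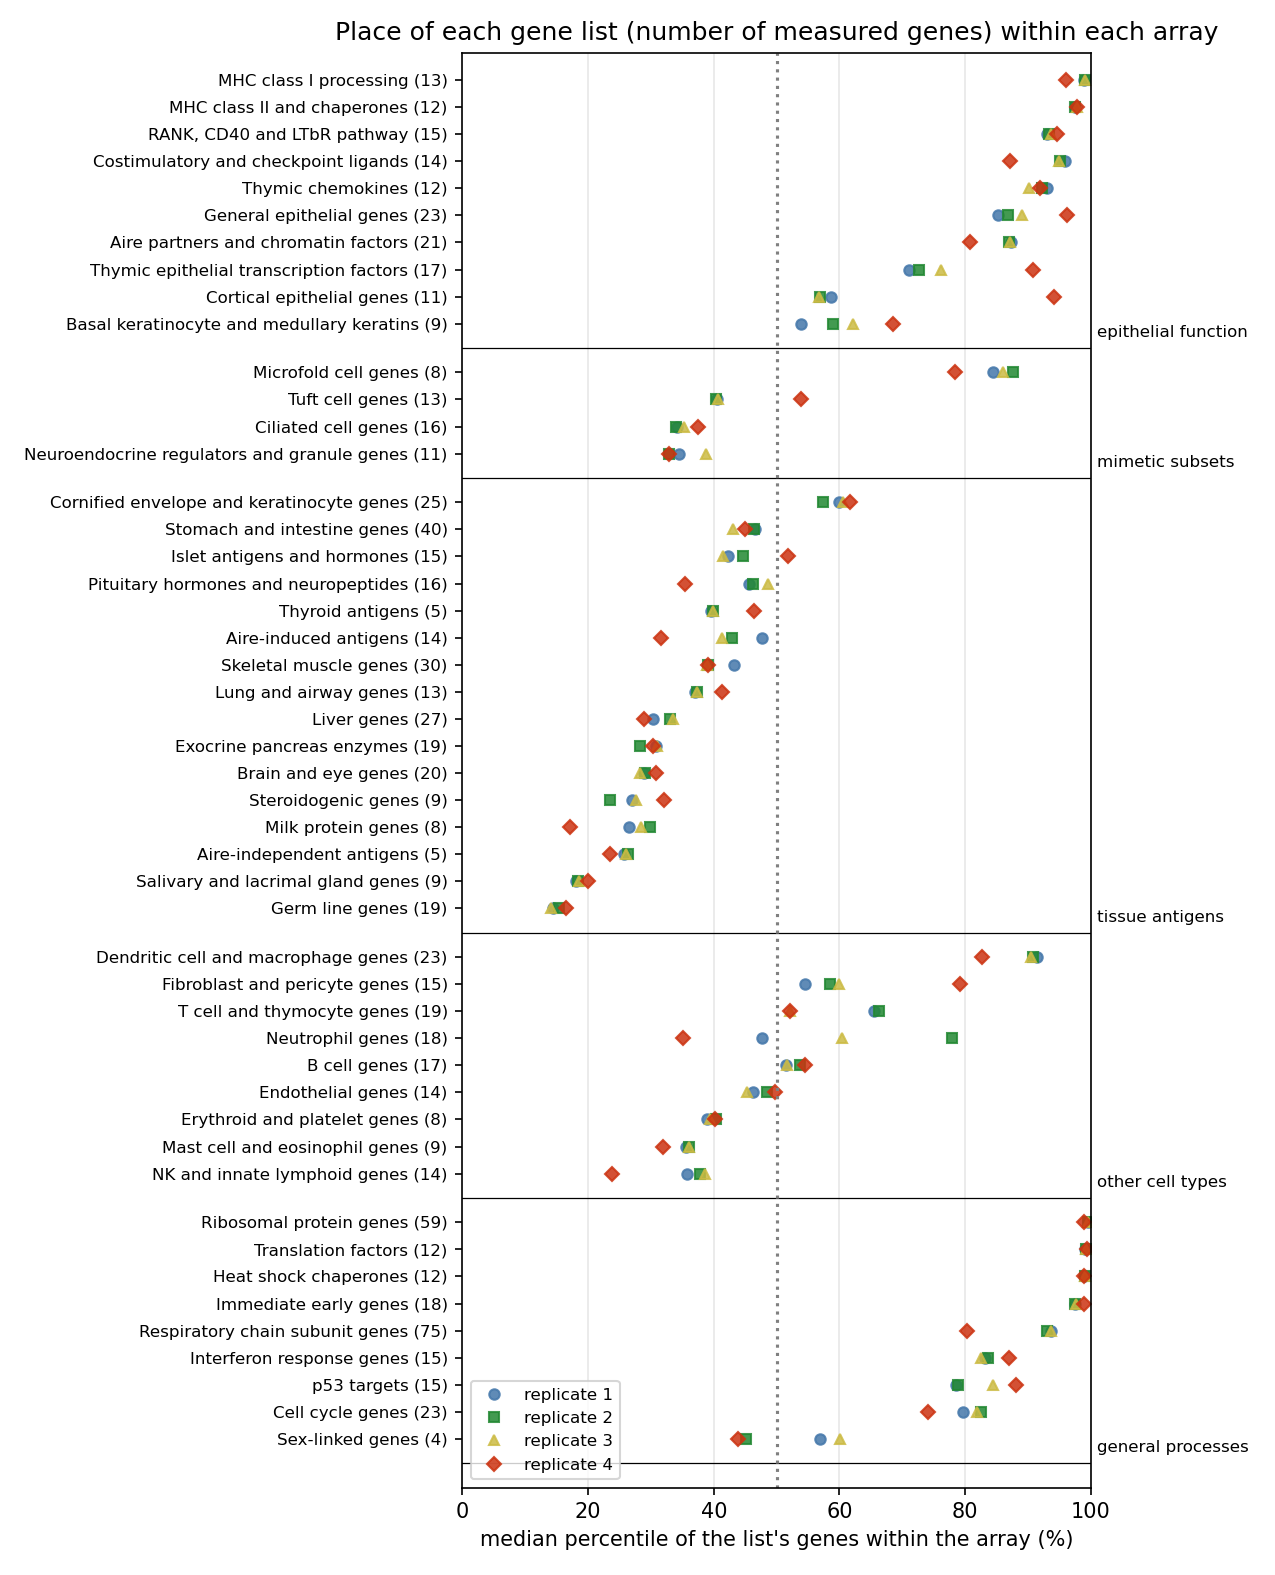
Median percentile within the array (x axis, %) of each gene list (y axis, with the number of measured genes), 1 point per reconRAG1KO array; the dotted line is the median of all genes. Antigen presentation lists lie near the right edge, most tissue antigen lists lie left of the middle, and replicate 4 is displaced most for cortical epithelial, fibroblast and neutrophil genes.

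Thymic epithelial transcription factors lay in the upper part of the array. Of 17 measured, 16 were above the reference level, with a median percentile of 77.6 ± 9.0 (SD, n = 4) and of 73.3 over replicates 1 to 3. Fezf2, a regulator of Aire-independent tissue antigens, gave 9.46, 9.53, 9.85 and 9.81. Foxn1, required for thymic epithelial development, gave 8.94, 9.02, 9.18 and 9.63. Irf8 gave 10.95, 10.72, 10.63 and 9.89; it also serves dendritic cells, and here replicate 4 was lowest.
Fezf2 showed no separation of replicate 4, though it was highest there after quantile normalization, and Foxn1 was highest there. Trp63, which maintains stratified epithelial progenitors, gave 7.54, 7.75, 7.99 and 9.18. Pax1, active in the pharyngeal pouch, gave 7.81, 7.98, 8.11 and 9.05. Spib, a factor of the RANK response that B cells and plasmacytoid cells use too, gave 8.83, 8.93, 9.17 and 9.36. Replicate 4 was highest for all of these, and it was above every other array for 14 of the 17 factors and below every other for 1, against 51.7% and 28.2% of all genes. Hoxa3, needed for the thymic primordium in the embryo, was the lowest factor at 4.97, 4.97, 4.84 and 5.09, under the reference level on each array.

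General epithelial genes moved the same way. All 23 measured genes lay above the reference level, at a median percentile of 89.3 ± 4.8, and 87.0 over replicates 1 to 3. Their mean signal was 8.73, 8.78, 8.99 and 9.46 in replicates 1 to 4. Replicate 4 was above all others in 20 of the 23, against 51.7% of all genes as deposited and 39.6% of all genes after centring. The basal keratinocyte and medullary keratin list (9 measured, 7 above the reference level) stood at 7.74, 7.83, 8.01 and 8.39. In both lists the first array was lowest and replicate 4 highest.

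The receptor pathway that matures these cells was present throughout. All 15 measured genes of the RANK, CD40 and lymphotoxin beta receptor pathway lay above the reference level, at a median percentile of 93.6 ± 0.7. Nfkbia, the NF-kappaB inhibitor that is itself an NF-kappaB target, gave 12.04, 12.08, 12.09 and 12.37. Relb, the non-classical NF-kappaB subunit needed for medullary epithelium, gave 10.39, 10.22, 10.27 and 10.01. Traf5, an adaptor of these receptors, was the lowest of the list at 7.92, 7.71, 7.79 and 6.80.
Replicate 4 was highest for Nfkbia and lowest for Relb and Traf5. It was below every other array for 8 of the 15 genes and above for 3, against 28.2% and 51.7% of all genes. After quantile normalization replicate 4 was highest for Relb too. The mean difference of the list on replicate 4 was -0.23, which turned to 0.091 after quantile normalization. Its direction thus depended on the scaling. The 21 measured Aire partners and chromatin factors all lay above the reference level, at a median percentile of 85.6 ± 3.2. Chd4, a nucleosome remodeller, was the highest of them at 10.06, 10.13, 10.13 and 10.29.

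Costimulatory and checkpoint ligands ranked high but not steadily. All 14 lay above the reference level. Their median percentile was 93.3 ± 4.1 over 4 arrays and 95.3 over replicates 1 to 3. Cd86, which like Cd80 binds CD28 and is abundant on dendritic cells, gave 10.15, 9.95, 9.89 and 7.95. Icosl, the ligand of ICOS, gave 10.11, 10.16, 10.21 and 10.42.
Replicate 4 was far below the others for Cd86 and slightly above them for Icosl. It was below every other array for 10 of the 14 ligands, and lower by more than 1 for 8, against 28.2% and 4.76% of all genes. In the highest 10% of genes by mean signal, where 9 of the 14 lay, 408 of 1994 were lower by more than 1. The thymic chemokines divided likewise. Ccl19, a CCR7 ligand that draws thymocytes to the medulla, gave 11.58, 11.37, 11.79 and 11.97. Ccl22, a CCR4 ligand made by dendritic cells, gave 11.35, 11.11, 10.996 and 8.75. Ccl25, a CCR9 ligand of cortical epithelium, gave 7.85, 8.11, 8.07 and 10.13. Replicate 4 was lowest for Ccl22 and highest for Ccl25. Over the 12 chemokines the mean difference was -0.34 and the median 0.02, and the mean shrank to -0.094 after quantile normalization.

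Antigen presentation filled the top of the array. The 12 measured MHC class II and chaperone genes had a median percentile of 97.6 ± 0.1, with H2-Ea the 1 member under the reference level. The 13 MHC class I processing genes stood at 98.3 ± 1.5, and at 99.01 over replicates 1 to 3. Ctss (cathepsin S, which trims the invariant chain) gave 11.70, 11.53, 11.49 and 10.11. For Ctss replicate 4 was again the lowest array. The mean of the class II list was 10.72, 10.66, 10.70 and 10.31, and that of the class I list was 11.13, 11.06, 11.09 and 10.29. Both lists were steady in replicates 1 to 3. The difference of replicate 4 depended on the scaling: quantile normalization changed it from -0.38 to -0.057 for class II and from -0.81 to -0.41 for class I.

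Cortical epithelial genes differed between arrays mainly through replicate 4. Of the 11, 9 lay above the reference level, and the list mean was 7.68, 7.74, 7.74 and 8.77. Prss16 gave 6.97, 7.01 and 7.01 in replicates 1 to 3 and 11.01 in replicate 4, higher by 4.02. Tbata, a thymic epithelial regulator of proliferation, gave 8.45, 8.51, 8.72 and 10.39. Psmb11, the cortex-specific proteasome subunit, gave 5.57, 5.56, 5.01 and 6.34.
Prss16, Ccl25 and Tbata were thus near or above the middle of replicates 1 to 3 and in the upper part of replicate 4, while Psmb11 passed the reference level on replicate 4 only. Replicate 4 was above all others for 9 of the 11 genes, and higher by more than 1 for 6, against 51.7% and 0.948% of all genes. It was lowest for Cd83, the highest gene of the list, with 11.16, 10.95, 10.86 and 9.28. The same held for Ly75, with 10.31, 10.30, 10.13 and 9.66. Cd83 was lower there by more than 1.

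Markers of epithelial cells that mimic peripheral lineages lay as a whole near the shares of all genes, with 27 of 48 below the median of the array and 35 of 48 (72.9%) above the reference level, against 69.8% of all genes. The lists differed among themselves. Microfold cell genes had a median percentile of 84.1 ± 4.0, with all 8 above the reference level. Within that list Gp2, Sox8 and Ccl20 lay lower, at mean percentiles of 59.1, 50.9 and 54.8. Ccl9, Aif1, Spib, Tnfaip2 and Marcksl1 ranked higher, from 82.7 for Ccl9 to 99.7 for Marcksl1. Of these, Spib is also used by B cells, and Aif1 differed by -1.83 on replicate 4. The list median thus does not describe each member, and which cells gave these signals was not tested. Tuft cell genes stood at 43.9 ± 6.6 (11 of 13), ciliated cell genes at 35.2 ± 1.6 (9 of 16) and neuroendocrine genes at 34.7 ± 2.7 (7 of 11). Insm1, a transcription factor of neuroendocrine cells, was high for its list at 9.70, 9.83, 10.01 and 9.37. Pou2f3, the tuft cell regulator, gave 6.63, 6.63, 6.63 and 7.30. Foxj1, the regulator of motile cilia, gave 7.34, 7.34, 7.48 and 7.81. Insm1 was lowest on replicate 4, but within the range of the others after quantile normalization, and Pou2f3 and Foxj1 were highest there.

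Tissue antigens spanned the array from near the receptor genes to the top 10%. The germ line list had the lowest median percentile of the 16 antigen lists, 15.1, with 5 of 19 genes above the reference level. The cornified envelope and keratinocyte list had the highest, 59.9 ± 1.8, with 19 of 25 above. For comparison the receptor genes stood at 6.6, with 61 of 1212 above by construction. Among all genes 69.8% lay above that level, so a count near this share does not set a list apart. Between these ends lay stomach and intestine genes at 45.2 (31 of 40 above), islet genes at 45.1 (11 of 15), pituitary hormones and neuropeptides at 44.0 (11 of 16), thyroid antigens at 41.4 (4 of 5), skeletal muscle genes at 40.1 (17 of 30) and lung genes at 38.3 (9 of 13). Liver genes at 31.4 (15 of 27), exocrine pancreas enzymes at 30.1 (10 of 19), brain and eye genes at 29.2 (9 of 20), steroidogenic genes at 27.5 (4 of 9), Aire-independent antigens at 25.4 (2 of 5) and salivary and lacrimal gland genes at 18.7 (2 of 9) were lower. The order of close neighbours in this series, such as stomach and islet, rests on differences smaller than the spread between arrays.

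Single antigens reached the level of the epithelial regulators. Csn2 (beta casein of milk) was the highest antigen, with 9.87, 10.14, 10.06 and 10.23, although its milk protein list had a median percentile of 25.5. Syt1 (the synaptic calcium sensor synaptotagmin) followed with 9.45, 9.62, 9.82 and 10.10. Sprr1a, the cornified envelope protein whose CpG-free promoter is printed above, gave 9.34, 8.94, 9.46 and 8.82. Replicate 4 was highest for Csn2 and Syt1 and lowest for Sprr1a, in each by less than 0.5 from the mean of the others. Sprr1a lay within the range of the others after quantile normalization, and Csn2 after centring.
Sst (somatostatin, a hormone of islets and gut) gave 8.57, 8.62, 8.39 and 8.97. Apoa4 (an intestinal apolipoprotein) gave 8.59, 8.34, 8.58 and 8.92. Reg3g (an antibacterial lectin of the gut) gave 8.82, 8.35, 9.04 and 8.09. Trf (transferrin, made by liver) gave 8.62, 8.74, 8.55 and 8.61 and was the steadiest of them. S100a8, a granule protein of neutrophils that is also counted as Aire-induced, is described with the neutrophil genes because it moved with them. Napsa (an aspartic protease of lung and kidney) gave 9.71, 9.62, 9.25 and 7.90, with replicate 4 lowest by 1.63.

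Antigens often cited for Aire were not high as a list. The 14 measured Aire-induced antigens had a median percentile of 40.8 ± 6.7. Of them 10 (71.4%) lay above the reference level, near the 69.8% of all genes. Ins2 (insulin) gave 6.03, 6.03, 6.08 and 6.22, just above that level. Fabp9 (a fatty acid binding protein of testis) gave 7.16, 6.37, 6.51 and 5.76, the first array highest and replicate 4 lowest. The list's mean on replicate 4 differed by -0.36 and its median by -0.08, since the mean holds S100a8. Of 5 Aire-independent antigens 2 were above the reference level. Gad1 (glutamate decarboxylase) gave 7.08, 7.06, 7.04 and 7.36, whereas Tshr (the thyrotropin receptor) gave 4.59, 4.59, 4.59 and 4.96. Prm2 (a protamine of sperm) had 6.91 on every array, a tie in the deposited values. On the antigen genes together the median SD was 0.17 over 4 arrays and 0.09 over replicates 1 to 3, against 0.16 and 0.07 for all genes.

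Promoters of genes with a low signal and of tissue antigens shared features that the arrays did not use. RefSeq promoters of 300 bases were matched for 15613 of the 19937 genes. The median ratio of observed to expected CpG rose from 0.14 in the lowest of 10 equal bins of genes by signal to 0.80 in the top bin, with its highest value, 0.82, in the ninth. The 6-base motif TATAAA, searched on both strands, stood in 33.4% of promoters in the lowest bin and in 9.07% in the top bin. Among all genes matched it stood in 12.1%, and among all 27025 promoters of the table in 14.2%. Tissue antigens held it in 33.7% (67 of 199), with a median CpG ratio of 0.22, and the antigens above the reference level in 28.9% with the same ratio of 0.22. All genes above that level had 7.83% and 0.73. Antigens with a signal thus kept the CpG-poor promoters of the whole antigen set. Cornified envelope genes reached 55.0% (11 of 20), and Sprr1a is one of them. Ribosomal protein genes such as Rplp0 had a CpG ratio of 0.87 and TATAAA in 10.6%; the receptor genes had 0.11 and 40.3%. Dendritic cell and macrophage genes were CpG-poor too, at 0.25, although their signals were high. These are shares of letters in 1 promoter per gene, and no factor's binding was measured.

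**Figure D3:**
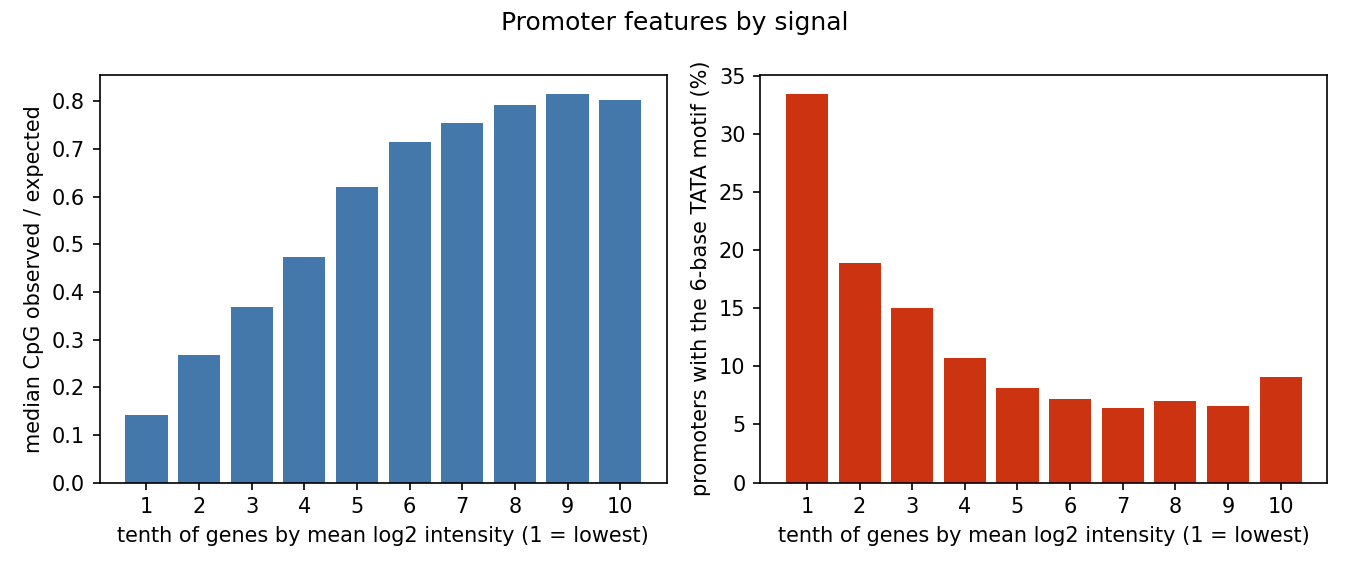
Median observed over expected CpG (left) and share of promoters with TATAAA on either strand (right, %) for genes split into 10 equal bins by mean log2 intensity, from the lowest (1) to the highest (10). CpG climbs from 0.14 to 0.80, and the motif falls from 33.4% to 9.07%.

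Genes of other cell types were present beside the epithelial ones, dendritic cell and macrophage genes most of all. All 23 measured genes of that list lay above the reference level and 12 in the top 10%, at a median percentile of 88.9 ± 4.1. The leucocyte antigen Ptprc (CD45), chosen after its values were seen, gave 10.22, 10.21, 9.99 and 8.93. Flt3, Xcr1, Clec9a, Tyrobp and Csf1r, given below, were chosen in the same way. Flt3, the growth factor receptor of dendritic cells, gave 10.11, 9.91, 9.85 and 8.34. Xcr1, a chemokine receptor of cross-presenting dendritic cells, gave 8.77, 8.73, 8.57 and 6.51.
All of these were lowest on replicate 4, and the other arrays lay closer to each other than to it. Clec9a, a dead cell receptor of the same dendritic cells, gave 7.75, 7.42, 7.07 and 5.44. Ccr7, the receptor of migrating mature dendritic cells, was also chosen after its values were seen and gave 12.26, 11.90, 11.95 and 9.78. Tyrobp, a myeloid signalling adaptor, gave 10.78, 10.53, 10.40 and 8.59. The differences of replicate 4 from the others were -2.18 for Xcr1, -2.26 for Ccr7 and -1.98 for Tyrobp. For Clec9a replicate 4 lay below the reference level, so the size of its difference is not given.
Genes of macrophages were less uniform. Csf1r, the receptor of macrophage colony stimulating factor, gave 9.56, 9.57, 9.27 and 9.55. C1qb, a complement subunit of macrophages, gave 10.84, 10.76, 10.54 and 10.54. Lyz2 (lysozyme) gave 12.53, 12.40, 12.38 and 11.68. For Csf1r replicate 4 lay within the range of the others, C1qb was level with replicate 3, and Lyz2 was lower there. After quantile normalization Csf1r and C1qb were highest on replicate 4. C1qa and C1qc, of the same complement complex as C1qb, were lower on replicate 4, with differences of -1.15 and -0.88.
Over the whole list replicate 4 was below every other array in 16 of 23 genes and above in 1, and lower by more than 1 in 8. Over all genes these shares were 28.2%, 51.7% and 4.76%. In the highest 10% of genes by mean signal, where 12 of the 23 lay, 408 of 1994 were lower by more than 1. Mertk, the 1 above, differed by 0.41. Cd68, Sirpa, Siglech, Cd209a and Csf1r differed by 0.21, 0.11, 0.10, 0.09 and 0.08, and every other member had a negative difference. The list mean was 9.26, 9.16, 8.98 and 8.45. It moved beside Cd80, Cd86, Ccl22, Cst3, Fscn1 and Ctss, which dendritic cells also express. What part these cells had in the values of those genes was not tested.

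**Figure D4:**
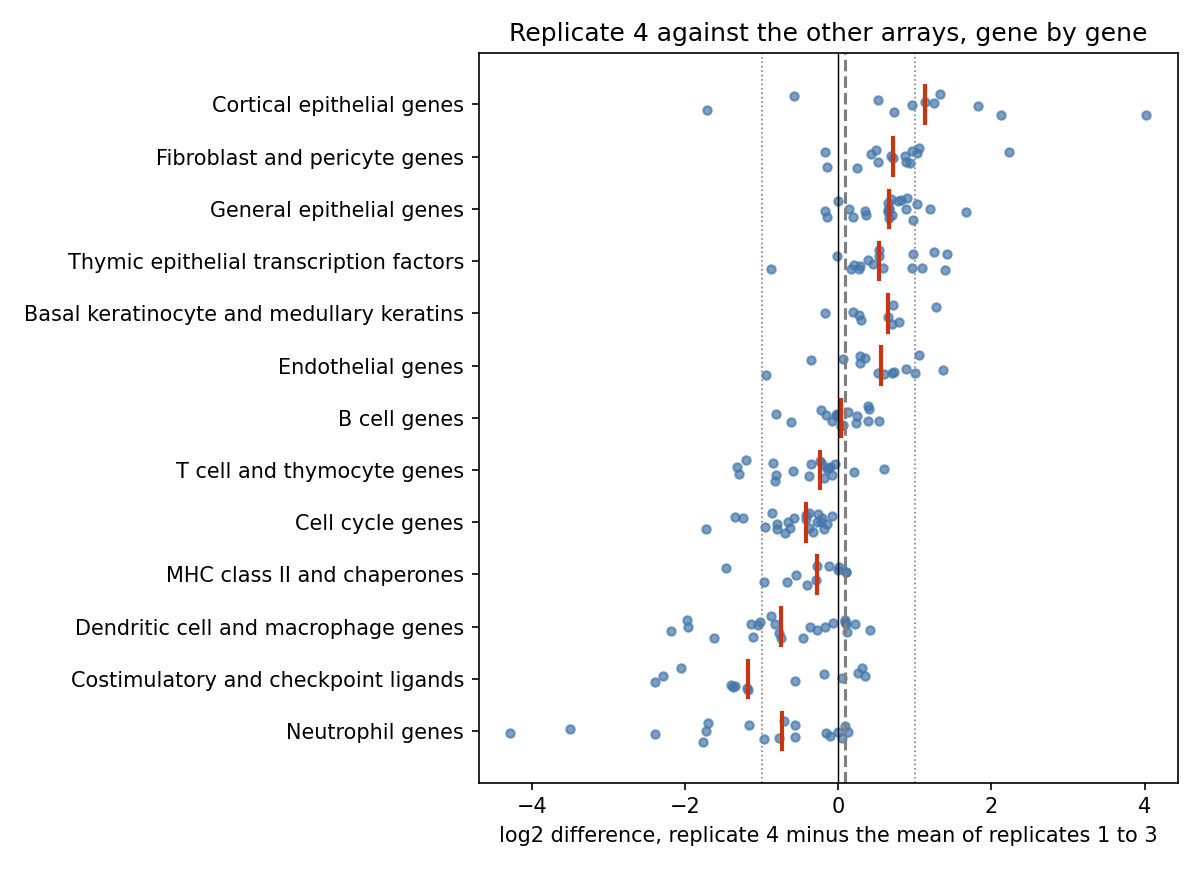
Log2 difference of replicate 4 from the mean of replicates 1 to 3 (x axis) for each gene (points) of 13 lists (y axis); red bars are list medians, the dashed line is the median of all genes, 0.09, and dotted lines mark a difference of 1. Cortical, fibroblast and epithelial genes lie mostly right of the line, and dendritic cell, costimulatory and neutrophil genes mostly left of it.

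Most fibroblast and endothelial genes were highest on replicate 4, as most epithelial ones were. The 15 fibroblast and pericyte genes had means of 7.08, 7.24, 7.41 and 7.96. Of them 13 were highest on replicate 4, against 51.7% of all genes. Dcn (decorin, a matrix proteoglycan) gave 7.88, 8.84, 9.07 and 10.83. Acta2, the highest gene of the list, and Thy1 were not highest there, with differences of -0.18 and -0.15. Igfbp5, a growth factor binding protein that stromal cells secrete, gave 8.14, 8.31, 9.13 and 11.11. It is not on this list and was named only for being among the genes most raised on replicate 4. The first array was lowest and replicate 4 highest for Dcn and Igfbp5.
Endothelial genes averaged 6.48, 6.48, 6.49 and 6.95, level over replicates 1 to 3, unlike the epithelial list. Of the 14, 11 were highest on replicate 4 and 2 lowest, against 51.7% and 28.2% of all genes. Pecam1 (CD31) gave 6.94, 7.15, 7.10 and 8.12, but Kdr (a receptor of vascular growth factor) gave 8.08, 7.93, 7.86 and 7.01. These members went opposite ways on replicate 4. Among blood lineages, NK and innate lymphoid genes had a median percentile of 34.0 (8 of 14 above the reference level), and erythroid and platelet genes one of 39.7 (6 of 8).

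Most T cell and thymocyte genes were higher on the first and second arrays than on the others. The list mean over 19 genes was 7.45, 7.47, 7.05 and 6.90, with a median percentile of 59.0 ± 8.0. Cd8a (a coreceptor of thymocytes) gave 9.45, 9.52, 8.85 and 8.06. Cd3g (a chain of the T cell receptor complex) gave 9.25, 9.28, 8.44 and 8.17. Rag1, given above, had the same order. Rag2, the lowest gene of the list, gave 3.92, 3.92, 3.87 and 3.77, under the reference level on each array. The Rag1 signal thus stood beside that of Cd8a and Cd3g but not of Rag2, and its source was not tested.
B cell genes had a median percentile of 52.9 ± 1.5. Cd79a (a chain of the B cell receptor complex) gave 8.10, 8.02, 7.29 and 7.18, in the manner of the thymocyte genes. Blnk, a signalling adaptor on the same list, gave 9.44, 9.48, 9.75 and 9.95, in the manner of the epithelial genes. The list mean hid this, with 7.17, 7.11, 7.05 and 7.14.

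Mean signals of the granulocyte lists were highest on replicate 2. The neutrophil list (18 genes, 16 above the reference level) averaged 7.01, 8.13, 7.54 and 6.44. S100a8 gave 9.71, 11.10, 10.51 and 6.16, and its partner S100a9 gave 10.06, 11.55, 10.70 and 7.26. Ngp (a neutrophil granule protein) gave 7.62, 10.44, 9.13 and 6.67. For all of them replicate 2 was highest, replicate 3 next and replicate 4 lowest. Of the other members, Mpo, Elane, Prtn3 and Ctsg were highest on replicate 3, at 7.36, 6.69, 6.38 and 5.71. Itgb2l was highest on replicate 4, at 6.34. All remaining members of the list were highest on replicate 2.
Some granule genes of eosinophils and basophils were also highest on replicate 2. Prg2 (major basic protein) gave 9.18, 12.13, 9.87 and 7.48. Epx (eosinophil peroxidase) gave 7.24, 10.55, 7.72 and 6.18. Ear6 (an eosinophil ribonuclease) gave 6.83, 9.81, 7.07 and 6.08.
Mcpt8, a basophil protease, gave 5.52, 8.26, 7.12 and 5.29. In each of these replicate 2 exceeded the next array by more than 1. Hdc, the histamine synthesising enzyme of mast cells that medullary epithelium is also known to express, gave 9.80, 9.77, 10.07 and 9.97 and did not follow them. The mean of the 9 mast cell and eosinophil genes was 6.79, 7.52, 6.998 and 6.49. The height of replicate 2 in that mean came mainly from Prg2 and Epx, and Mcpt4, Tpsb2, Fcer1a, Ms4a2 and Hdc were not highest there.

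**Figure D5:**
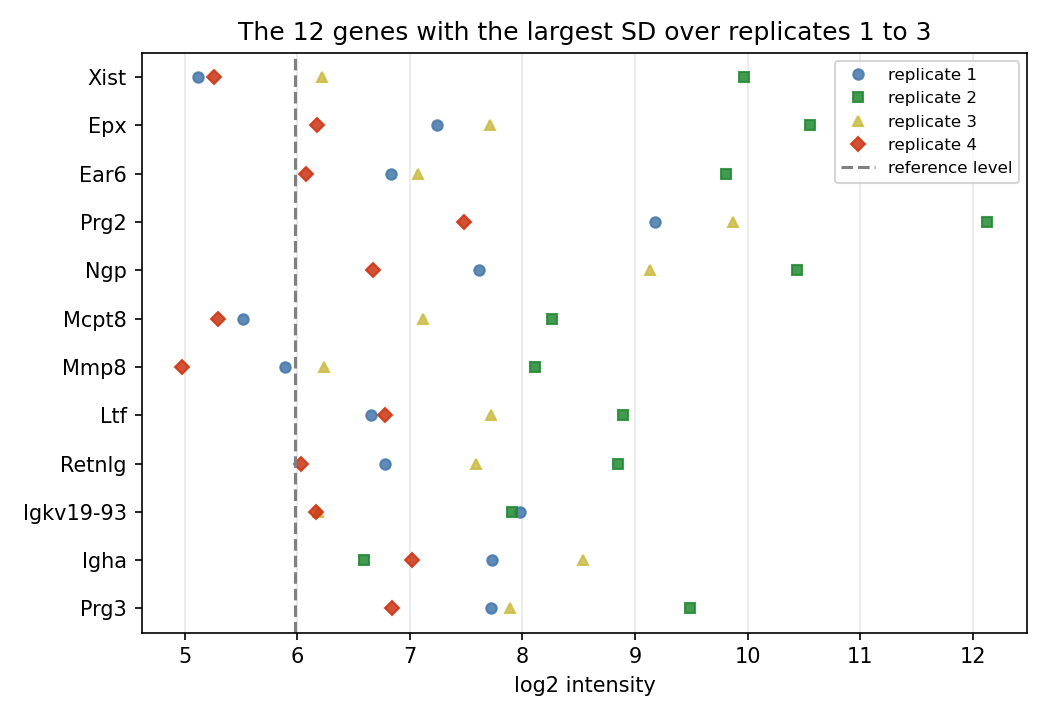
Log2 intensity (x axis) of the 12 genes with the largest SD over replicates 1 to 3 among genes above the reference level (y axis), 1 point per reconRAG1KO array; the dashed line is the reference level. Replicate 2 is the rightmost point for 10 of the 12, which include Xist and granule genes of neutrophils, eosinophils and basophils.

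The gene with the largest SD over replicates 1 to 3 was Xist, the RNA that silences an X chromosome in females, with 5.11, 9.96, 6.22 and 5.26. Replicate 2 was far above the others. Eif2s3y, a gene of the Y chromosome, gave 8.65, 7.03, 8.55 and 7.92 and was lowest on replicate 2. The labels give no sex for the animals. Igha, the constant region of IgA, gave 7.73, 6.59, 8.54 and 7.01 without such an order. Genes with an SD above 0.5 and a mean above the reference level were farthest from the other arrays on replicate 4 in 1138 cases, on replicate 2 in 22, on replicate 1 in 8 and on replicate 3 in 1.

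Genes that serve every cell also set replicate 4 apart. The 59 ribosomal protein genes averaged 11.33, 11.22, 11.27 and 9.87. Of them 56 were lowest on replicate 4 and 34 lower by more than 1, against 28.2% and 4.76% of all genes. In the highest 10% of genes by mean signal, where 47 of the 59 lay, 408 of 1994 were lower by more than 1. Rps6 gave 13.89, 13.98, 13.86 and 10.94, and Rps29 gave 13.68, 13.45, 13.50 and 9.48. Transcripts of near-identical copies can hybridise to ribosomal probe sets, so single members are uncertain.
The 75 respiratory chain subunits averaged 9.51, 9.41, 9.51 and 8.25, with 68 lowest on replicate 4, against 28.2% of all genes. Hspe1, a mitochondrial chaperonin, gave 11.98 on each of replicates 1 to 3 and 8.59 on replicate 4. Hint1, a small nucleotide hydrolase, gave 10.07, 10.09, 10.07 and 5.73, below the reference level on replicate 4. Hspe1 and Hint1 hardly varied over replicates 1 to 3.
The shift on replicate 4 varied with level, with a median difference of 0.22 in the fourth of the 10 bins and -0.31 in the top bin. Genes lower there by more than 1 and above the reference level had a median genomic span of 12.7 kb in RefSeq, those higher by more than 1 had 35.9 kb, and all genes above the reference level had 20.9 kb. Signal level, span and the cell type genes named above moved together on this array, and their part in each other's values was not tested.

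Cell cycle genes were lower on replicate 4 as well. The 23 measured genes averaged 8.25, 8.43, 8.44 and 7.78 and all lay above the reference level. Pcna (the sliding clamp of DNA polymerase) gave 10.73, 11.07, 10.91 and 9.17. Mki67 (the proliferation antigen) gave 9.35, 9.53, 9.53 and 9.05. Replicate 4 was lowest for 22 of the 23, and for 18 after quantile normalization, when Mki67 lay within the range of the others. Among all genes it was lowest in 28.2% as deposited and in 35.4% after quantile normalization. Immediate early genes, the first transcripts of stimulated cells, had a median percentile of 97.9 and averaged 10.10, 10.10, 10.20 and 10.26. Fos gave 11.47, 11.31, 11.64 and 11.93, and was high on all arrays. Heat shock chaperones stood at a median percentile of 98.97, translation factors at 99.2, interferon response genes at 84.1 and p53 targets at 82.5.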

How the data were processed

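Samples were grouped by title. The authors deposited 1 linear intensity per probe set, already summarised and scaled; how this was done is not given in the sources. Per the labels, biotinylated cRNA was hybridised to Affymetrix arrays. Log2 was taken of the deposited values, with no pseudocount since 0 values were at or below 0. Of the probe sets, 1321 had several symbols and 11799 were unnamed in the annotation used, and both kinds were left out. Where a gene had several probe sets (954 genes), the one with the highest mean stood for it. Of the symbols, 19918 were found in the RefSeq table of GRCm38.p6.

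The percentile of each gene was taken per array, then the median over each list, then the mean and SD over arrays. With 1 group there was no test and no p-value. Spread between these samples may be partly technical. The members and lists were chosen with earlier results of these data known. Of the gene lists, 50 were used and 2 matched no symbol.

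Named genes were the 6 markers, the 30 highest genes, up to 5 highest and the lowest of each list, all transcription factors, the 12 most variable over replicates 1 to 3, and the 12 most raised and 12 most lowered on replicate 4. Cd86, Ctss, Pou2f3, Psmb11, Ins2, Flt3, Xcr1, Clec9a, Tyrobp, Csf1r, Hspe1, Ptprc and Ccr7 were added after their values were seen.

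Alternatives were quantile normalization, median centring, a pseudocount of 16, the mean of probe sets, a filter on low values, a stricter reference percentile of 99, a difference of 2, and leaving out each array. Scripts were tested on simulated data and used python 3.11.15, numpy 2.4.6, pandas 2.3.3, scipy 1.17.1 and matplotlib 3.10.9.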

Additional observations from a re-analysis of the deposited data

Results flagged for a closer look

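A criterion for one array apart from the rest (Dixon's gap over range, at the 95% level for 4 values) was applied to 49 list means and to the 91 genes given with their values. Chance alone gives it in about 1 in 20 groups; among all genes it was met by 6201 of 19937 (31.1%), by 4928 of them through replicate 4, and ties in the values raise this number. Of the 91 genes, 22 met it through replicate 4 and 1 through replicate 3, a smaller share than among all genes; of the 49 list means, 12 met it through replicate 4 and 1 through replicate 1. Many of the 91 were named because they were extreme on replicate 4, or were added after their values were seen, so for them the criterion restates the choice. All values are log2 intensities.

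List means that replicate 4 placed lowest were ribosomal proteins at 9.87, respiratory chain subunits at 8.25, translation factors at 11.01, MHC class I processing at 10.29, MHC class II and chaperones at 10.31, costimulatory ligands at 8.60 and the RANK, CD40 and lymphotoxin beta receptor pathway at 9.37. After quantile normalization the differences of replicate 4 shrank from -0.81 to -0.41 for MHC class I, from -0.38 to -0.057 for MHC class II and from -0.55 to -0.13 for translation factors, and the pathway list changed sign to 0.091. Those it placed highest were cortical epithelial genes at 8.77, endothelial genes at 6.95, ciliated cell genes at 6.59, islet genes at 6.68 and thyroid antigens at 6.45. For liver genes replicate 1 was highest at 6.07, against 6.05 on each of the others.

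Of the genes, replicate 4 was lowest for Cd80 at 9.08, Cd86 at 7.95, Ccl22 at 8.75, Ccr7 at 9.78, Flt3 at 8.34 and Xcr1 at 6.51, all expressed by mature dendritic cells among others. The same held for Ctss at 10.11, H2-Eb1 at 12.54 (highest there after quantile normalization), B2m at 13.07, Cst3 at 10.95 and Vim at 11.68. It held too for Rps6 at 10.94, Rps29 at 9.48, Hspe1 at 8.59 and Hint1 at 5.73. Replicate 4 was highest for the cortical genes Prss16 at 11.01, Ccl25 at 10.13 and Tbata at 10.39, and for Nfkbia at 12.37, Pou2f3 at 7.30, Gad1 at 7.36 and Tshr at 4.96. For Csf1r replicate 3 was lowest at 9.27.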

How the results depend on the processing

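No paired analysis was possible because only 1 group is described and its results come from no test. Of 440 list percentiles under other settings, 394 moved by less than the spread between arrays, and 46 moved further (42 of them under the filter on low values); of 810 gene percentiles 77 moved further. The median SD of 0.16 became 0.070 without replicate 4, and leaving out each array in turn gave 0.070 to 0.18. Genes higher by more than 1 on replicate 4 (189) numbered 340 after quantile normalization, 121 after centring, 125 with a pseudocount of 16 and 120 with the filter; a limit of 2 left 7 higher and 171 lower genes (949 at 1). Leaving out each other array gave 172 to 237 higher and 930 to 966 lower. Of 391 replicate 4 differences of list means under other settings, 266 were classed as the same, 112 as moved and 13 as changed in sign. For the 49 lists these classes held 11, 32 and 6 after quantile normalization, and 9, 37 and 3 after centring. The sizes of these differences thus depended on the scaling. Those that changed sign were, after quantile normalization, RANK pathway 0.091, microfold 0.11, exocrine pancreas -0.021, germ line -0.083, salivary -0.040 and interferon response 0.065. After centring they were exocrine pancreas -0.022, germ line -0.053 and salivary -0.059. With the filter, which drops low genes, they were tuft -0.28, brain and eye -0.086, lung -0.26 and pituitary 0.060. The cause was not tested elsewhere. The largest move of a list percentile came from that filter, 67.96 for milk proteins, which loses the low members. Leaving out 1 array moved the cortical percentile by up to 9.19 (replicate 4) and the neutrophil percentile by up to 7.54 (replicate 2). Signals near the reference level give no order.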

Other observations

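Of the receptor genes used as the reference, 61 lay above it. The highest were Olfr1174 at 8.52, 8.25, 8.30 and 8.58 and Olfr767 at 8.71, 8.08, 8.29 and 8.57 (log2, replicates 1 to 4), at mean percentiles of 82.4 and 82.1. On each array both were above the median of all genes, and neither set replicate 4 apart from replicate 1 by more than 0.2.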
